A study of Homo sapiens with 4 samples.

Results

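The p53 pathway genes described here are 34 genes listed by symbol as regulators or transcriptional targets of the tumour suppressor p53, and matched to Ensembl gene IDs. How firmly each is established as a target was not assessed, and some also respond to other signals. All 34 were found among the 63677 gene IDs of the count table, and their RNA was compared between LX-2 cells given the miR-6133-5p mimic and LX-2 cells given miControl. LX-2 is an immortalised human hepatic stellate cell line, the liver cell that turns into a matrix-producing myofibroblast during fibrosis, and miControl is a negative control miRNA mimic. Both mimics were transfected at 20 nM, 5 ng/mL of recombinant human TGF-β1 was added a day later to every culture, and RNA was taken 24 h after that addition. There were 2 libraries per group, with totals of 51862006 and 57903388 counts for miControl and 61747010 and 93811213 counts for miR-6133-5p. Both groups therefore carry a transfected small RNA and TGF-β1, no library without either was analysed, and all cells are of 1 line.

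p53 is a transcription factor that is held at a low level by the ubiquitin ligase MDM2 and its partner MDM4, and that is stabilised when DNA damage, oncogenic signalling or ribosomal stress breaks this hold. Its targets include inhibitors of the cell cycle, inducers of apoptosis, DNA repair genes, metabolic and antioxidant genes, and *MDM2* itself, which closes a feedback loop. In hepatic stellate cells, p53 and p21 are best known for the senescence that stops activated cells from dividing and limits scar formation.

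The libraries carried RNA of mesenchymal cells, with levels given as CPM, the counts of a gene scaled to a common library total with TMM factors. *COL1A1*, *COL1A2*, *COL3A1*, *TIMP1*, *VIM*, *PDGFRB* and *ACTA2* were present in every library, whereas *DES* had no count in either miControl library and *LRAT*, *DCN* and *LUM* were close to 0. Of the 11 mesenchymal markers listed, 3 were called and fell, *COL1A1* (-1.46), *COL1A2* (-1.11) and *ACTA2* (-1.95 in log2 fold change), while *COL3A1* had -0.44, *TIMP1* 0.42, *PDGFRB* 0.04 and *VIM* -0.02. The hepatocyte genes *ALB*, *APOA1* and *TTR*, the leukocyte genes *PTPRC* and *CD163* and the epithelial genes *EPCAM* and *CDH1* were also at or close to 0. *SERPINA1*, *KDR*, *CD14* and *KRT7*, the most abundant of the hepatocyte, endothelial, leukocyte and epithelial markers, reached at most 7.08 CPM, and none of those markers was called. *KRT7* was at 3.62 and 4.44 CPM in miControl and at 6.61 and 7.08 CPM with the mimic, a log2 fold change of 0.76 just inside the threshold (adjusted p = 0.00317 in edgeR), and whether this reflects a share of other cells was not tested. In bulk RNA, fewer cells of a type and less RNA per cell cannot be told apart. Nothing in the labels says that the replicates were separate cultures, so the p-values measure the spread between these libraries, which may be technical.

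Of the 32 members that could be tested, 30 were called in neither direction with the mimic. The exceptions were *TP53I11*, which fell, and *FDXR*, which rose. A gene was called when the adjusted p of edgeR's quasi-likelihood test was below 0.01 and its log2 fold change was beyond 0.8 in either direction. By that rule 1 of 32 members was called lower, beside 5.54% of the 18252 genes tested, and 1 of 32 was called higher, beside 2.90%. The median log2 fold change was 0.04 over the members and 0.03 over all tested genes. Without a threshold on fold change, an adjusted p below 0.05 was reached in the lower direction by 6 members (18.8%, beside 16.1% of all tested genes) and in the higher direction by 5 (15.6%, beside 14.1%). With library totals alone in place of TMM factors, 4 were lower (12.5%, beside 11.1%) and 10 higher (31.3%, beside 25.2%). Fewer of the 11 members that passed with TMM factors did so when either miControl library was left out. The share over all tested genes fell in these fits as well. Most of the 11 passed when either miR-6133-5p library was left out, and *TP53I11*, *FDXR* and *CDKN1A* passed in all 4 fits. The groups did not overlap in 22 of 32 members, or 68.8%, beside 64.4% of all tested genes. The members were thus called about as often as other genes were, in each direction and by each rule.

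**Figure D1:**
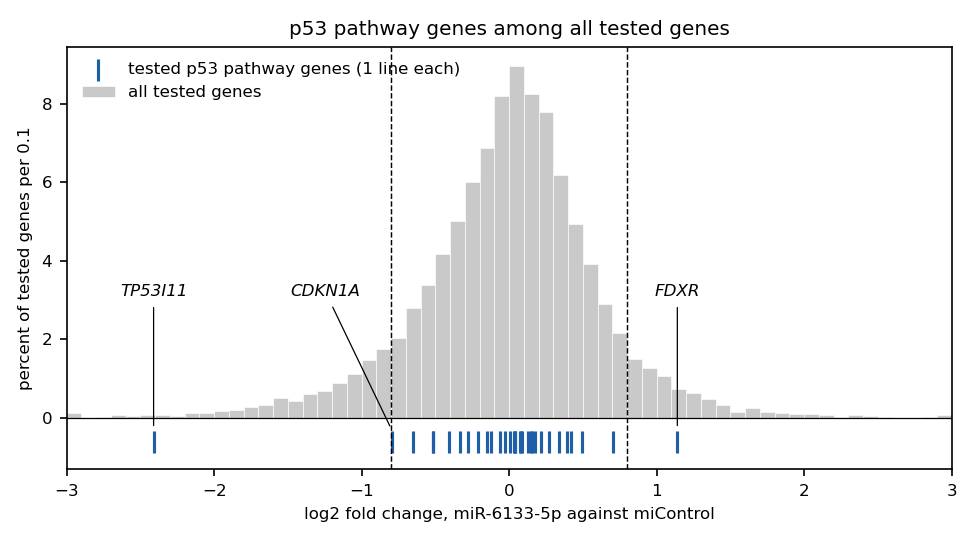
Distribution of the log2 fold change (miR-6133-5p against miControl) over 18252 tested genes, as the percent of genes per 0.1, with values beyond the axis in the outermost bars. The vertical marks under the axis are the 32 tested p53 pathway genes and the dashed lines the threshold of 0.8. *TP53I11* at -2.41 and *FDXR* at 1.14 lie beyond the lines, and *CDKN1A* at -0.796 lies on the edge.

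The scaling of the libraries matters for small differences. With library totals alone in place of TMM factors the median of all tested genes was 0.19, and that of the members was 0.20. The 1011 genes called lower and 529 called higher under TMM became 709 lower and 977 higher. Under the totals *CCNG1*, *SESN2*, *TIGAR* and *ZMAT3*, none of them called, passed from just below to just above 0, and the other tested members kept their direction. All differences below are relative to the TMM scale.

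p53 binds DNA as a tetramer at pairs of a 10-base element known as the p53 half-site, and the promoters of the members were searched for it. Most members were listed as targets of p53, so a higher share among them is not independent of the list. Windows from 250 bases before to 50 after a gene start were taken from RefSeq (GRCh38.p14), which matched 30 of the 34 members in 44 windows. The half-site is its own reverse complement in form, so 1 search covered both strands. It was found at 5 of 30 members, or 16.7%, beside 8.06% of 27305 genes with such a window. Counted by window, the shares were 11.4% of the 44 and 6.63% of all 35116. A pair of half-sites with at most 13 bases between them was found at 1 member, *DDB2*, and at 10 of all 27305 genes. The matches are shown because they are the stretches of these promoters that resemble the element. Capitals mark the half-sites and each run reads 5′ to 3′ on the strand of the gene. Some members have more than 1 annotated start, and each match belongs to 1 of them.
DDB2: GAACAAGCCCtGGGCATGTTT
FDXR: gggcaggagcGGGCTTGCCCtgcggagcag
SESN1: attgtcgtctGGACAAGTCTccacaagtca
PLK2: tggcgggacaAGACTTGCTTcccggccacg
AEN: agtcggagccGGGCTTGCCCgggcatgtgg
The *DDB2* run lies at chr11:47214979-47214999 on the plus strand, inside the transcribed sequence from base 6 to base 26. The *FDXR* run lies at chr17:74872986-74873015 on the minus strand, with its half-site from base -11 to base -2 relative to the start. The other runs lie upstream of the start, at chr6:109009018-109009047 (minus strand) for *SESN1*, chr5:58460199-58460228 (minus strand) for *PLK2* and chr15:88621296-88621325 (plus strand) for *AEN*. Of these 5 genes only *FDXR* was called. A match in this window is a description of the letters and not evidence of binding.

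Upstream of the members, *HIPK2* encodes a kinase that phosphorylates p53 and favours the induction of its apoptotic targets. It was at 194 and 205 CPM in miControl and at 43.4 and 64.2 CPM with the mimic. Both mimic libraries were far below the controls, and they differed from one another more than the controls did. *HIPK2* fell by 1.89 ± 0.15 (SE) on the log2 scale, with adjusted p = 1.4e-06. Among 26 listed regulators and relatives of p53, 25 were tested, and *HIPK2* was the 1 called at these thresholds, or 4% called lower beside 5.54% of all tested genes. At an adjusted p of 0.05 with any fold change 5 were lower (20%, beside 16.1%) and 6 higher (24%, beside 14.1%). With library totals alone 1 was called lower (4%, beside 3.88% of all tested genes) and 2 higher (8%, beside 5.35%). By the rule without a fold threshold, the totals gave 4 lower (16%, beside 11.1%) and 9 higher (36%, beside 25.2%). Without miControl replicate 1 the share of regulators that passed this rule lay below that of all tested genes. The p53 relative *TP63* was too low to test, and *TP73* was near 2 CPM in every library. The damage kinase gene *CHEK2* and the corepressor gene *TRIM28* had log2 fold changes of 0.68 and 0.69, and the coactivator gene *EP300* had -0.54. All 3 had an adjusted p under 0.01 in edgeR but a fold change inside the threshold. The same held for *PPP1R13L* (-0.49), *DAXX* (-0.46), *KAT5* (0.42) and *SIRT1* (0.45). All of these were named after their values were seen.

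**Figure D2:**
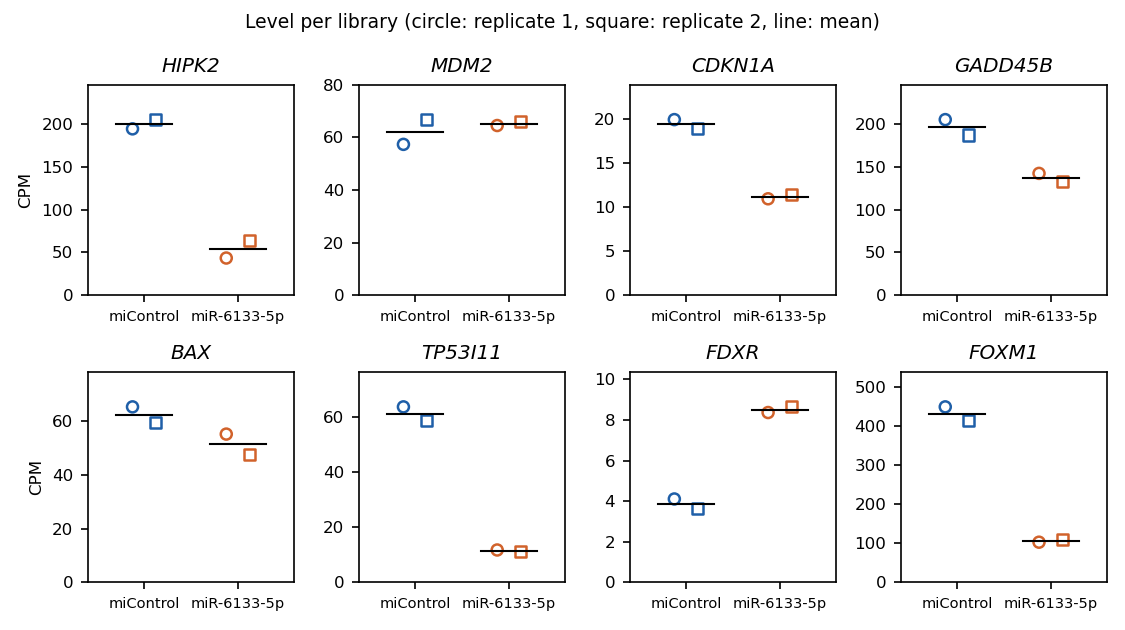
CPM of 8 genes in each library on linear axes that start at 0, with circles for replicate 1, squares for replicate 2 and a line at the mean of each group. *FDXR* was higher with the mimic, *HIPK2*, *TP53I11* and *FOXM1* were lower, *CDKN1A* and *GADD45B* were lower inside the fold threshold, *BAX* differed little and the groups of *MDM2* overlapped.

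The members that hold p53 in check are *MDM2* and *MDM4*, *PPM1D*, a phosphatase that switches off p53 and its kinases, and *FBXO22*, a subunit of a ubiquitin ligase. *MDM2* (ENSG00000135679, chromosome 12, GRCh37 positions 69201957 to 69239324, plus strand) was at 57.4 and 66.8 CPM in miControl and 64.5 and 65.9 CPM with the mimic. Both mimic values lay between the control values. The log2 fold change was 0.07 ± 0.11 (SE), with adjusted p = 0.675 in edgeR. *MDM2* is itself a target of p53, and no difference in its RNA was detected here. The protein level and activity of p53 in this line were not measured. RNA of its targets is therefore not read here as p53 activity. The log2 fold changes of all 4 of these genes were above 0, from 0.07 to 0.27 at *MDM4*, and none reached an adjusted p of 0.05 in the main fit. With library totals alone *MDM4* (0.43) and *PPM1D* (0.31) did, and so did *MDM4* without miR-6133-5p replicate 2 (0.30). Over all alternatives the adjusted p of *MDM4* ran from 0.00644 to 1, that of *PPM1D* from 0.0441 to 1 and that of *MDM2* from 0.105 to 1, with *MDM2* at -0.05 without miControl replicate 1. Reads of genes that overlap on opposite strands cannot be told apart unless counting used the strand, which the sources used here do not say. Such genes share 11.1% of the *MDM2* exon bases, where the main one had no count in any library, and *NRG4* shares 16.2% of those of *FBXO22*.

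Cell cycle arrest and growth control take in 9 members, of which 8 were tested and none was called. At an adjusted p of 0.05 with any fold change 4 were lower (50%, beside 16.1% of all tested genes) and 2 higher (25%, beside 14.1%). The lower count was 2 with library totals alone (25%, beside 11.1%), 1 without miControl replicate 1 (11.1%, beside 8.25%) and 2 without miControl replicate 2 (22.2%, beside 9.70%). *CDKN1A* encodes p21, the inhibitor of cyclin-dependent kinases through which p53 halts division (ENSG00000124762, chromosome 6, GRCh37 positions 36644237 to 36655114, plus strand). It was at 19.9 and 18.9 CPM in miControl and 10.9 and 11.4 CPM with the mimic. Both mimic libraries were clearly below both controls, and replicates of a group differed by about 1 CPM or less. The log2 fold change of -0.796 ± 0.12 (SE) had adjusted p = 0.000212 in edgeR and missed the fold threshold by less than 0.01. It passed that threshold with RLE factors (-0.808), with DESeq2 (-0.803), with at least 10 counts in every library (-0.803), after thinning (-0.824), without miControl replicate 2 (-0.860) and without miR-6133-5p replicate 2 (-0.845). With library totals alone it was -0.63.

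The stress-inducible growth arrest genes *GADD45B* and *GADD45A* had the highest levels per length of all members, at 92.0 and 69.8 CPM per kb of exon in miControl. *GADD45B* was at 206 and 188 CPM in miControl and 143 and 133 CPM with the mimic. *GADD45A* was at 138 and 130 CPM in miControl and 118 and 95.4 CPM with the mimic. Both mimic values of each gene were below both control values, by a log2 fold change of -0.51 ± 0.11 (SE, adjusted p = 0.00238 in edgeR) for *GADD45B* and -0.33 ± 0.12 (SE, adjusted p = 0.0476) for *GADD45A*. For *GADD45B* the adjusted p was above 0.05 without miControl replicate 1, where the log2 fold change was -0.46. The *GADD45A* value rested on single libraries, at -0.51 without miR-6133-5p replicate 1 and -0.20 without miR-6133-5p replicate 2, and it was -0.17 with library totals alone. Its adjusted p was above 0.05 in the latter 2 settings and without either miControl library, with a range of 0.000236 to 1 over all alternatives. *CCNG2*, a cyclin that accompanies exit from the cycle, had a log2 fold change of -0.41 and adjusted p = 0.015, and -0.24 with library totals alone. Its adjusted p was above 0.05 with the totals and without either miControl library, ranging from 0.000727 to 1 over all alternatives.

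The stress-responsive kinase genes *PLK2* and *PLK3* went the other way. *PLK2* was at 165 CPM in both miControl libraries and at 237 and 227 CPM with the mimic. Its replicates were close together and its groups apart, with a log2 fold change of 0.49 ± 0.10 (SE) and adjusted p = 0.00231 in edgeR. *PLK3* had a log2 fold change of 0.39 with adjusted p = 0.021. Neither gene kept an adjusted p below 0.05 when a miControl library was left out, where fewer of all tested genes did. The log2 fold change of *PLK2* was 0.48 without miControl replicate 1 and 0.47 without miControl replicate 2. That of *PLK3* was 0.46 and 0.29 in the same fits. The groups overlapped in *CCNG1*, a cyclin that acts on MDM2 through a phosphatase, and in the antiproliferative gene *BTG2*. *SFN*, which encodes the epithelial 14-3-3 sigma protein, had 1 count in each miControl library and 5 and 18 with the mimic, too few to be tested.

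**Figure D3:**
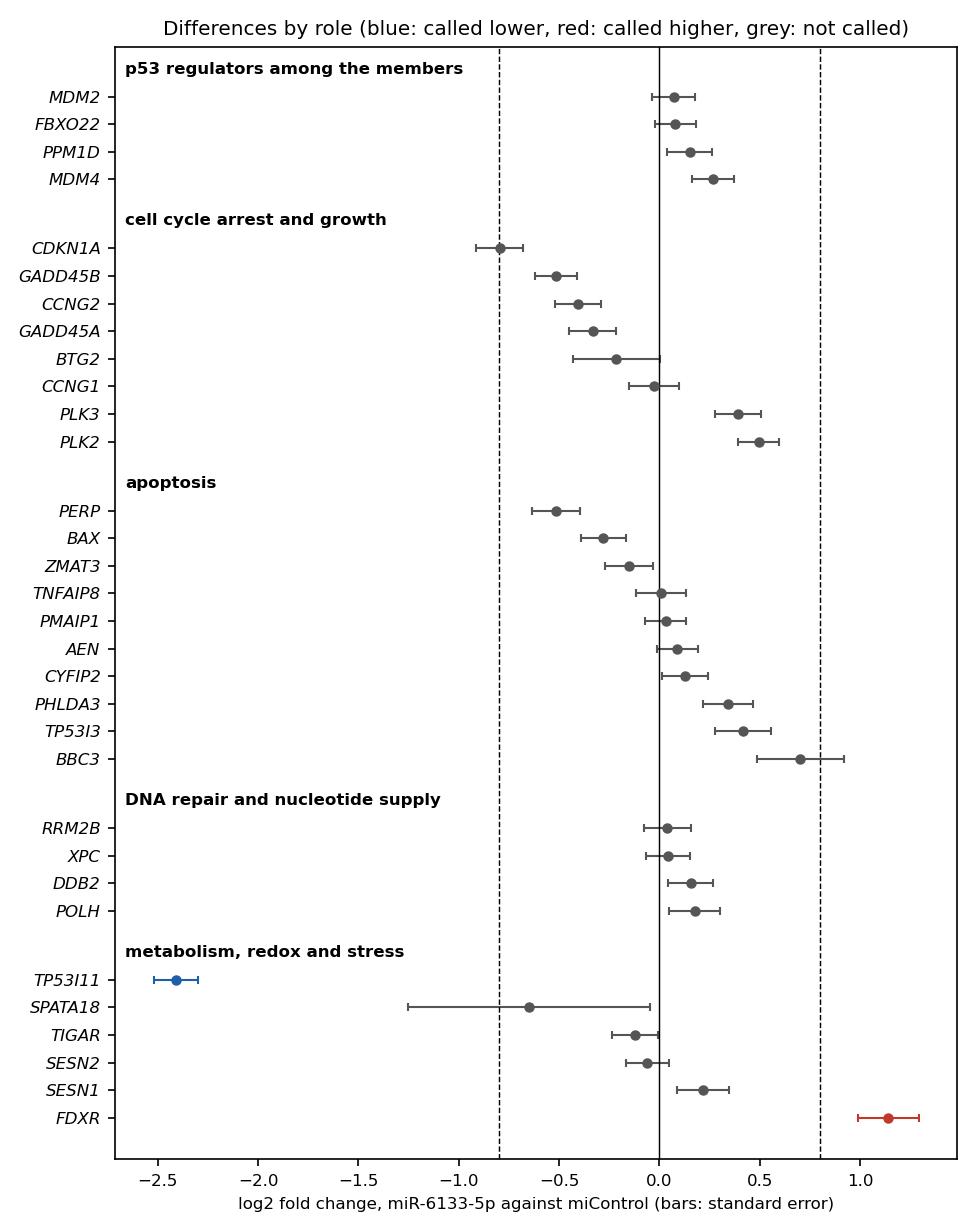
Log2 fold change of each of the 32 tested members (miR-6133-5p against miControl, TMM scale), grouped by role, with bars of 1 standard error and dashed lines at the threshold of 0.8. *TP53I11* (blue, -2.41) and *FDXR* (red, 1.14) were called, and the 4 DNA repair and nucleotide supply genes lie between 0.04 and 0.17.

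All 10 members placed under apoptosis were tested and none was called. At an adjusted p of 0.05 with any fold change 1 was lower (10%, beside 16.1%) and 2 higher (20%, beside 14.1%). *BAX*, the pore-forming protein of the mitochondrial outer membrane (ENSG00000087088, chromosome 19, GRCh37 positions 49458072 to 49465055, plus strand), was at 65.3 and 59.5 CPM in miControl and 55.2 and 47.7 CPM with the mimic. The mimic values were below the control values, but the gap was no wider than the distance between replicates. The log2 fold change was -0.28 ± 0.11 (SE), with adjusted p = 0.0737 in edgeR. It was -0.12 with library totals alone and -0.40 without miR-6133-5p replicate 1. The adjusted p was below 0.05 in the latter and with the replicate block, ranging from 0.00571 to 1 over all alternatives. The BH3-only genes *BBC3*, which encodes PUMA, and *PMAIP1*, which encodes NOXA, were both tested. *BBC3* was low, at 1.65 and 1.74 CPM in miControl and 2.89 and 2.64 CPM with the mimic. Both mimic values were higher, with a log2 fold change of 0.70 ± 0.22 (SE) and adjusted p = 0.0262. *BBC3* was called with library totals alone (0.87), and its adjusted p was above 0.05 without either miControl library, without miR-6133-5p replicate 1 and with DESeq2, ranging from 0.00718 to 1 over all alternatives. *PMAIP1*, near 40 CPM in every library, had a log2 fold change of 0.03.

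*PERP*, a desmosome and apoptosis effector, was at 34.2 and 37.1 CPM in miControl and 27.2 and 22.6 CPM with the mimic. It was lower in both mimic libraries, with a log2 fold change of -0.52 ± 0.12 (SE) and adjusted p = 0.00516 in edgeR, which was above 0.05 without miControl replicate 2. The log2 fold change of *PERP* in that fit was -0.48. *TP53I3*, a quinone oxidoreductase linked to oxidative stress, had a log2 fold change of 0.42 with adjusted p = 0.04, which was 0.26 without miControl replicate 2. Its adjusted p was above 0.05 there, without miControl replicate 1, without miR-6133-5p replicate 2 and with DESeq2, with a range of 0.00625 to 1 over all alternatives. Like *BAX* and *PMAIP1*, the other 5 did not reach an adjusted p of 0.05 in the main fit. Their log2 fold changes were 0.34 for *PHLDA3*, an inhibitor of AKT, 0.13 for *CYFIP2*, 0.09 for the nuclease gene *AEN*, 0.01 for *TNFAIP8* and -0.15 for the RNA-binding protein gene *ZMAT3*. The value of *PHLDA3* depended on the setting, at 0.18 without miR-6133-5p replicate 1, 0.46 without miR-6133-5p replicate 2 and 0.50 with library totals alone. Its adjusted p was below 0.05 in the latter 2, with the replicate block and with no filter, ranging from 0.00468 to 1 over all alternatives. A gene on the same strand also shares 18.4% of its exon bases.

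In the main fit the DNA repair and nucleotide supply genes were the group with the narrowest range. Without miR-6133-5p replicate 1 their log2 fold changes ran from 0.02 to 0.33. Those of *MDM2*, *MDM4*, *PPM1D* and *FBXO22* ran from 0.06 to 0.21 in that fit, a narrower range. *XPC* and *DDB2* recognise ultraviolet damage for nucleotide excision repair, *POLH* encodes the polymerase that copies past it, and *RRM2B* encodes a subunit of ribonucleotide reductase. All 4 had log2 fold changes from 0.04 to 0.17, and none reached an adjusted p of 0.05 in the main fit. *DDB2* did with library totals alone (0.32, range of 0.0434 to 1 over all alternatives) and *POLH* did without miR-6133-5p replicate 1 (0.33, range of 0.0310 to 1). *DDB2*, the member with a pair of half-sites at its start, was at 18.4 and 19.5 CPM in miControl and 21.9 and 20.3 CPM with the mimic. The mimic values were slightly higher without overlap, and the log2 fold change of 0.16 ± 0.11 (SE) had adjusted p = 0.342 in edgeR. Of the *XPC* exon bases, 24.6% are shared with genes on the opposite strand, of which *XPC-AS1* had at most 22 counts in a library.

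**Figure D4:**
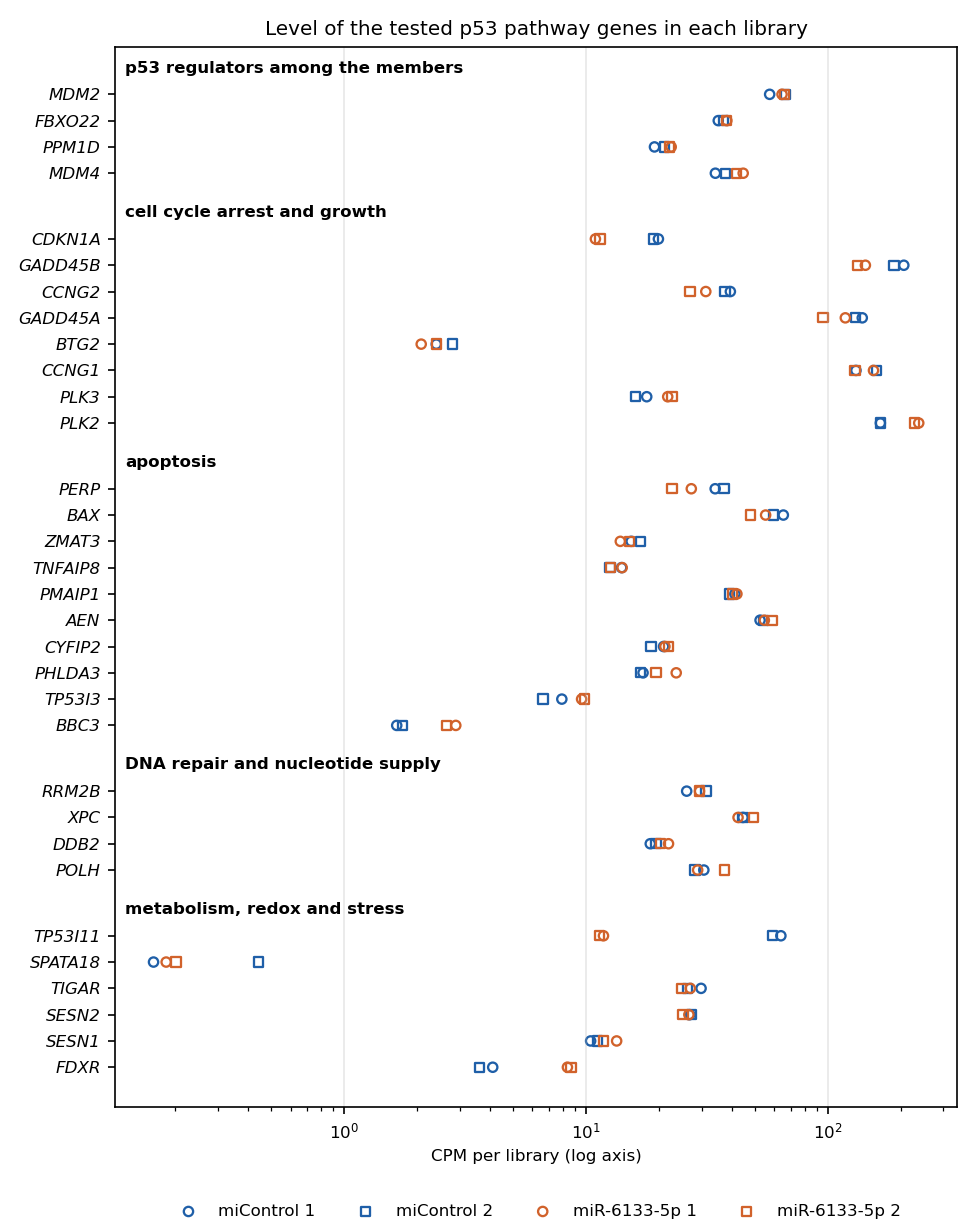
CPM of the 32 tested members in each of the 4 libraries on a log axis, grouped by role, with blue symbols for miControl and orange for miR-6133-5p. The groups do not overlap in 22 of the 32, with the widest separation on this axis in *TP53I11*.

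Each member was given 1 role here, although roles overlap, and the shares by role depend on that placement. As placed, the metabolic, redox and other stress genes hold both called members. Of 7 listed, 6 were tested, with 1 called lower and 1 higher (16.7% each, beside 5.54% and 2.90% of all tested genes). *TP53I11* was one of the first genes listed as induced by p53 (ENSG00000175274, chromosome 11, GRCh37 positions 44907454 to 44972857, minus strand). It was at 63.8 and 59.0 CPM in miControl and at 11.8 and 11.3 CPM with the mimic. The mimic libraries lay close together, and the controls were about 5.3-fold higher. *TP53I11* fell by 2.41 ± 0.11 (SE) on the log2 scale, with adjusted p = 2.18e-08 in edgeR. In miControl it ranked 10 of 32 members by level per length, at 8.36 CPM per kb, and with the mimic it was at 1.57 CPM per kb.

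*FDXR* encodes ferredoxin reductase, the mitochondrial enzyme that passes electrons to ferredoxin for steroid and iron-sulfur cluster synthesis (ENSG00000161513, chromosome 17, GRCh37 positions 72858619 to 72869156, minus strand). It was at 4.11 and 3.62 CPM in miControl and at 8.37 and 8.64 CPM with the mimic. Both mimic libraries were above 2-fold the control values, from a low level of 1.07 CPM per kb in miControl. *FDXR* rose by a log2 fold change of 1.14 ± 0.15 (SE), with adjusted p = 9.32e-05 in edgeR. In a stricter test, in which a log2 fold change of 0.8 is the null (glmTreat), *FDXR* was not called (adjusted p = 0.131, with a range of 7.32e-10 to 0.131 over all alternatives).

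The sestrin genes *SESN1* and *SESN2*, which restrain mTORC1 under stress, had log2 fold changes of 0.22 and -0.06. *SESN1* reached an adjusted p of 0.05 with library totals alone (0.38, range of 0.0335 to 1 over all alternatives). *TIGAR*, a phosphatase that diverts glucose from glycolysis, had -0.12, with 18.1% of its exon bases shared with another gene on its strand, and *SPATA18*, a gene of mitochondrial quality control, was below 0.5 CPM in every library. The stress cytokine gene *GDF15* had 8 and 3 counts in miControl and 20 and 12 with the mimic, too few to be tested. The groups overlapped in *GDF15* once scaled to CPM.

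Further targets of p53 that are not among the members were listed as well. All 32 on the list were tested, with 2 called lower (6.25%, beside 5.54% of all tested genes) and 1 higher (3.13%, beside 2.90%) and a median log2 fold change of 0.04. At an adjusted p of 0.05 with any fold change 10 were lower (31.3%, beside 16.1%) and 6 higher (18.8%, beside 14.1%), and the groups did not overlap in 25 (78.1%, beside 64.4%). The balance turned with library totals alone, where 6 were lower by that rule (18.8%, beside 11.1%) and 12 higher (37.5%, beside 25.2%). *LIF*, a cytokine of the interleukin 6 family, was at 38.0 and 36.1 CPM in miControl and at 13 and 15.6 CPM with the mimic, and it fell by 1.37 ± 0.12 (SE) on the log2 scale. *SUSD6*, a p53-induced membrane protein gene, was at 45.7 and 44.1 CPM in miControl and at 22.7 and 23.0 CPM with the mimic, and it fell by 0.98 ± 0.10 (SE). In both genes the groups were far apart. *TRIM22*, a ubiquitin ligase gene also induced by interferon, was at 2.77 and 3.38 CPM in miControl and at 4.40 and 6.66 CPM with the mimic, a log2 fold change of 0.85 ± 0.21 (SE, adjusted p = 0.00827 in edgeR). The replicates with the mimic differed by more than the gap to the controls, and the call was lost without miControl replicate 1 (0.71), without miControl replicate 2 (0.98), without miR-6133-5p replicate 2 (0.50) and after thinning (0.80).

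p53 lowers many cell cycle genes indirectly, through p21 and the DREAM repressor complex. Of 20 such genes 1 was called lower (5%, beside 5.54% of all tested genes) and 3 higher (15%, beside 2.90%), and their median log2 fold change was 0.24. At an adjusted p of 0.05 with any fold change 4 were lower (20%, beside 16.1%) and 9 higher (45%, beside 14.1%). By that rule library totals alone gave 1 lower (5%, beside 11.1%) and 13 higher (65%, beside 25.2%). The log2 fold change was above 0 in 14 of the 20 (70%, beside 52.3%), or 16 with library totals alone (80%, beside 65.0%), and the groups did not overlap in 19 (95%, beside 64.4%). *FOXM1*, the transcription factor of the mitotic programme, was at 448 and 414 CPM in miControl and at 103 and 111 CPM with the mimic. Its groups were about 4-fold apart, and it fell by 2.01 ± 0.11 (SE) on the log2 scale with adjusted p = 6e-08 in edgeR. *CDC25C*, the phosphatase that activates CDK1, was at 35.8 and 33.4 CPM in miControl and at 69.8 and 65.1 CPM with the mimic, and it rose by a log2 fold change of 0.96 ± 0.10 (SE). The kinetochore gene *CENPF* was at 196 and 328 CPM in miControl and at 619 and 917 CPM with the mimic, and it rose by a log2 fold change of 1.55 ± 0.21 (SE). The topoisomerase gene *TOP2A* was at 747 and 1057 CPM in miControl and at 1683 and 1875 CPM with the mimic, and it rose by a log2 fold change of 0.98 ± 0.14 (SE). In *CENPF* and *TOP2A* replicate 2 was above replicate 1 in both groups, and the call of *TOP2A* was lost without miControl replicate 1 (0.74). *FOXM1* thus moved against *CDC25C*, *CENPF* and *TOP2A* within the same list. Of the called genes in all 4 lists, glmTreat against 0.8 called *TP53I11*, *HIPK2*, *LIF* and *FOXM1*.

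**Figure D5:**
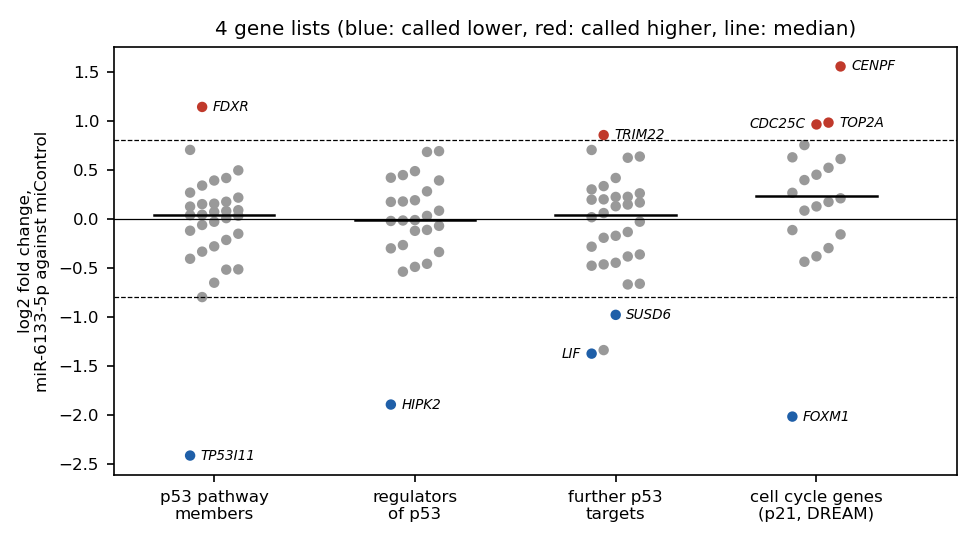
Log2 fold change (miR-6133-5p against miControl) of the tested genes in 4 lists, with blue points called lower, red points called higher, grey points not called and a line at each median. The medians are 0.04, -0.01, 0.04 and 0.24 from left to right, and called genes are labelled.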

How the data were processed

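The authors deposited whole-number counts per Ensembl gene, with no normalization. Per the submitters' processing notes, reads were aligned to GRCh37 with STAR 2.5.3a and counted with featureCounts (Subread 1.6.4), and the annotation release and strand setting are not given in the sources used here. The deposited counts came to 1.68 to 1.7 per uniquely mapped read pair, more than 1, so counting error alone would be understated and no interval was computed from counts. A count of 3 was at most 0.061 CPM.

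Symbols were matched by ID, and positions and exon lengths were read from GENCODE models in GRCh37 coordinates, which need not match the counting. The fit used edgeR 4.0.16 in R 4.3.3 (filterByExpr, TMM factors, glmQLFit and glmQLFTest) without a replicate block, and adjusted p-values (Benjamini–Hochberg) cover all 18252 tested genes. The thresholds of 0.01 and 0.8 follow the study's methods. The fit was tested on simulated data. Standard errors were derived from the F statistic. Alternatives were RLE factors, library totals alone, DESeq2 1.42.0, 2 other count filters, a replicate block, thinning to the smallest total, leaving out each library, glmTreat and an adjusted p of 0.05. Where a range of the adjusted p over all alternatives is given, its upper end came from glmTreat. That test takes a log2 fold change of 0.8, and not of 0, as its null.

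The members and lists were chosen with earlier results of these data known. Each member is accounted for, and values in every library are given for called members, *CDKN1A*, *MDM2*, *BAX* and the 2 members highest per length. From each other list, called genes with a mean of at least 1 CPM are named, at most 4 in each direction, and other genes were named after their values were seen. Some single genes were left out and are not reported here. Matches to the mature miRNA were not analysed here.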

Additional observations from a re-analysis of the deposited data

How the results depend on the processing

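The count of members called lower became 2 with RLE factors, with DESeq2, with at least 10 counts in every library and after thinning, each time through *CDKN1A*, beside 5.68%, 2.94%, 6.31% and 5.59% of all tested genes in these settings. When a library was left out it ranged from 1 to 2, beside 3.95% to 6.53%. The count called higher became 2 with library totals alone (6.25%, beside 5.35%) and 0 with glmTreat, which called 0.438% of all tested genes higher. With an adjusted p of 0.05 and any fold change, 6 members were lower and 5 higher, and 11 of 25 regulators, 16 of 32 further targets and 13 of 20 cell cycle genes passed in either direction (44%, 50% and 65%, beside 30.2% of all tested genes). With library totals alone 4 members were lower and 10 higher, and 52%, 56.3% and 70% of these lists passed, beside 36.3%. When a miControl library was left out, fewer passed in each list and over all tested genes. Without miControl replicate 1 the share of regulators that passed lay below that of all tested genes. Called regulators were 3 with library totals alone, 1 lower (4%, beside 3.88%) and 2 higher (8%, beside 5.35%). With glmTreat 1 further target (3.13%) and 1 cell cycle gene (5%) were called, each lower, beside 1.79% of all tested genes. The median of the members was 0.20 with library totals alone. The cause of these differences was not tested beyond the construction of each setting. With the replicate block 1 member was called lower and 1 higher (3.13% each, beside 6.19% and 3.52%) with a median of 0.04. Further targets called lower became 3 (9.38%) through *PRDM1* with the block, with no filter and with at least 10 counts in every library. Beside them stood 6.19%, 3.33% and 6.31% of all tested genes. Further targets called higher became 2 through *EPHA2* with library totals alone (6.25%, beside 5.35%). The block changed no call among the 40 single genes followed through the settings. Over all tested genes, same-numbered libraries hardly deviated together (correlation of deviations 0.049). In single genes they could, as in *CENPF*, *TOP2A*, *ATM* and *ATR*, where replicate 2 was above replicate 1 in both groups.

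Of the 40 genes, 11 changed sign somewhere, none of them called. With library totals alone these were *SESN2* (0.10), *ZMAT3* (0.0127), *TIGAR* (0.0432) and *CCNG1* (0.14), and with RLE factors *TNFAIP8* (-0.0043). Leaving out 1 library gave ranges of -0.0452 to 0.157 for *MDM2*, -0.0317 to 0.0565 for *PMAIP1*, -0.0978 to 0.149 for *RRM2B*, -0.0822 to 0.125 for *XPC*, -0.0392 to 0.330 for *POLH*, -0.179 to 0.0896 for *CCNG1*, -0.0987 to 0.0785 for *TNFAIP8* and -1.19 to 0.22 for *SPATA18*, the last with at most 24 counts in a library. *SUSD6*, *TRIM22*, *CENPF*, *TOP2A*, *CDC25C* and *FDXR* were not called with glmTreat. A lone library left in a group was assumed to vary like the other group. With 2 libraries per group, small differences in low genes such as *GDF15*, *SFN* and *SPATA18* were not detectable. Seed matches to the mature miRNA in 3′-UTRs, and their alternative with a shorter match, were not run.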
